A study of Mus musculus with 516 samples.

Results

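Axon guidance ligands and receptors are described here in single cells from dorsal root ganglia of the mouse, which hold the bodies of the sensory neurons that reach skin, muscle and spinal cord. Members were taken by gene name alone, with no measured value: semaphorins of classes 3 to 7, plexins, neuropilins, ephrins, Eph receptors, Slits, Robo receptors, netrins, Unc5 receptors, Dcc and neogenin. The rule found 35 of the 11251 genes of the deposited table, while 72 protein-coding genes of the mouse annotation carry such a name. All 9 plexins and both neuropilins are in the table, with 9 of 20 semaphorins, 4 of 8 ephrins, 3 of 14 Eph receptors, 2 of 4 Robo receptors, 1 of 3 Slits, 3 of 4 Unc5 receptors, 1 of 6 netrins, and neogenin without Dcc. No gene of the table has reads in fewer than 60 of its 516 cells, so guidance genes of rarer cells were not analysed here.

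Of the 516 cells 243 were from C57BL/6 and 273 from CAST/Ei mice, both inbred. Capture took place right upon dissociation (naive) or after 48 h in culture, with ara-C, which blocks dividing cells, added at 24 h. Culture cuts the axons and stands in the study for injury, and the labels call these cells injured. Cultured cells made up 45.7% of the C57BL/6 and 36.3% of the CAST/Ei cells. The labels tie no cell to an animal, a culture or a run of the chip, so each group counts as 1 sample, no p-value is given, and no difference below has a replicate check. All groups passed through a mesh of 35 µm and a Percoll layer, which set what cells were caught.

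Each guidance family pairs ligands with receptors on the growth cone, the motile tip of an axon, and turns it toward or away from a source. Class 3 semaphorins are secreted and act through a neuropilin that binds and a class A plexin that signals, while Sema3e and the class 4 to 6 semaphorins bind plexins directly. Ephrins on one cell meet Eph receptors on the next and can signal in both directions. Secreted Slits repel axons through Robo receptors, and netrin attracts through Dcc and neogenin or repels through Unc5 receptors. In sensory ganglia these systems are known for steering axons into spinal cord and skin during development, and several are known to be expressed in adult neurons.

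Levels are given as CPM (reads of the gene per 1000000 reads of the table), with the reads of a group's cells summed first, and differences as the log2 ratio of CPM + 1. Intervals of levels are exact 95% Poisson intervals of the summed reads and do not cover the spread between cells. Reads carry no molecular identifiers, so these intervals do not cover the counting of molecules either. Intervals of shares of cells are exact 95% Clopper-Pearson intervals, which treat the cells as independent draws. No interval covers differences between animals or cultures. Neuron-like cells, named by cluster from neuronal markers, numbered 369, of which 219 were from CAST/Ei mice. Of these 369, 34 C57BL/6 and 63 CAST/Ei cells were cultured and the other 272 naive. The neuronal list of 20 markers, all detected, summed to medians of 17272, 13283, 18434 and 14798 CPM per cell in the order C57BL/6 naive and cultured, CAST/Ei naive and cultured. Median depth was 662015, 535886, 969315 and 922631 reads per cell in the same order. Cultured cells also held a glia-like class of 34 and 23 cells and a fibroblast-like class of 43 and 13 cells, C57BL/6 first. An unnamed class of 16 and 18 naive cells was led by endothelial and interferon-induced genes. Naive neuron-like cells fell into 9 clusters and the cultured ones almost wholly into clusters 10 and 13, which hold no naive cell, so values are compared over the class.

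Promoters of members that moved together were read from RefSeq (GRCm38.p6, 250 bases before to 50 after the start), where 29 members matched with 38 promoters. The first 2 below belong to receptors higher in cultured cells of both strains, Nrp2 (chr1:62703067-62703366, plus strand) and Plxnb1 (chr9:109095186-109095485, plus strand). The next 2 belong to genes lower in both, Plxnc1 (chr10:94944796-94945095, minus strand) and Efna5 (chr17:62881268-62881567, minus strand). Capitals mark CG dinucleotides.
Nrp2: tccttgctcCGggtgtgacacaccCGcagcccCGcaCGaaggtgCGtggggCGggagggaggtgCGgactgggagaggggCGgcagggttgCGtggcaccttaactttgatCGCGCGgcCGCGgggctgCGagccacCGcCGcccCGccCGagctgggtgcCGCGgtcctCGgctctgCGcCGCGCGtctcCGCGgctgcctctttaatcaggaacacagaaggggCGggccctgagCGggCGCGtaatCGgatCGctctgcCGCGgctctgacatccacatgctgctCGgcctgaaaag
Plxnb1: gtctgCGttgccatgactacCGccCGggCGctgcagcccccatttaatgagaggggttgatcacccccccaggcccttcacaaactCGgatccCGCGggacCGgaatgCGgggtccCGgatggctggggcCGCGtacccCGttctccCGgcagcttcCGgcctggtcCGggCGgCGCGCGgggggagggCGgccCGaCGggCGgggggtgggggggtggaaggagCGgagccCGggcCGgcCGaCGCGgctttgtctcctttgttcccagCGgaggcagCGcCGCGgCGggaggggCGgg
Plxnc1: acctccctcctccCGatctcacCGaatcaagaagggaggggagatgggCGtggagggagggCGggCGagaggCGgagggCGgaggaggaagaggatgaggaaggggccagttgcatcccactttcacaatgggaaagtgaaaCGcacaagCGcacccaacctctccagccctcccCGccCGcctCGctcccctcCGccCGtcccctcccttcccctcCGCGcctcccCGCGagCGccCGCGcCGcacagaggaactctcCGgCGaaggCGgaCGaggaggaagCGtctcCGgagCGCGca
Efna5: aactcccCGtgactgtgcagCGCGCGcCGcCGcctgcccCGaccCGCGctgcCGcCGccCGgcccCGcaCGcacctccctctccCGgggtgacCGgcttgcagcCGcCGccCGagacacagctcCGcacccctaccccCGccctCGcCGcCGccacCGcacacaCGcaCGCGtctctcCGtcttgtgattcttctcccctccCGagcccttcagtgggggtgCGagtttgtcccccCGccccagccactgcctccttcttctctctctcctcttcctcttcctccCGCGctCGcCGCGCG
These windows hold 37, 36, 30 and 38 CG dinucleotides in that order. All 4 lie above the median of member promoters. Plxnb3, higher in both strains, has 4, and the 3 promoters of Robo2, lower in both, have 17, 5 and 9. The median over the 38 member promoters was 23, against 7 over all 32851 promoters of the reference, and their median GC content was 65.2% against 52.7%.

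Motifs of factors active after nerve injury were searched on both strands. The AP-1 motif, bound by Jun and Atf3 family factors, was searched in the loose form TGANTCA, where N is any base. That form was in 1 of 38 member promoters (2.63%) and in 7.81% of all promoters of this length. That promoter is the second of the 3 listed for Sema4d (chr13:51748761-51749060, minus strand), with the match at position 12 in capitals. The match has A as its middle base, and binding to it was not tested.
Sema4d promoter 2: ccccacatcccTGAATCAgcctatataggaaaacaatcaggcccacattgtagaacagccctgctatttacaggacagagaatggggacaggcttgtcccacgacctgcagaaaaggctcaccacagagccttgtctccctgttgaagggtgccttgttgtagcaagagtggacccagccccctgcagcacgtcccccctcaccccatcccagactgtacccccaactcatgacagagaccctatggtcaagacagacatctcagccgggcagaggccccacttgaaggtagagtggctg
The cAMP response motif TGACGTCA was in 0 member promoters and in 1.79% of all promoters. The E-box CANNTG was in 19 member promoters (50%) and in 72.3% of all. These matches describe letters in a window of 300 bases only.

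In naive neuron-like cells the highest level per kilobase of exon was that of Efna5, with 136.2 CPM per kb in C57BL/6 and 85.4 in CAST/Ei. Efna5, chr17:62604184-62881317 in mm10, encodes ephrin-A5, a membrane-anchored repellent. Plxnc1, the plexin that receives Sema7a, followed with 52 and 60.7 CPM per kb, and Efna1, ephrin-A1, with 50.6 and 60.6. In C57BL/6 the next were Nrp1 at 18.1 and Sema4b at 13.3 CPM per kb, and in CAST/Ei Robo2 at 22 and Nrp1 at 16.1, so the strains shared the leading 3 genes and differed below them. In cultured cells the leading level per kb in C57BL/6 was Sema6a at 47.7, then Efna5 at 32.7 and Efna1 at 25. Cultured CAST/Ei cells had Efna1 at 46.7, Plxna4 at 36 and Nrp1 at 18 CPM per kb in the lead. The order rests partly on single cells. Without the top cell of each gene Plxna4 led in cultured CAST/Ei cells with 34.3, before Efna1 with 29.9, and in C57BL/6 Efna1 with 17.7 stood below Plxna4 with 18.3. The per kb scale takes reads as spread along all annotated exons of a gene.

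**Figure D1:**
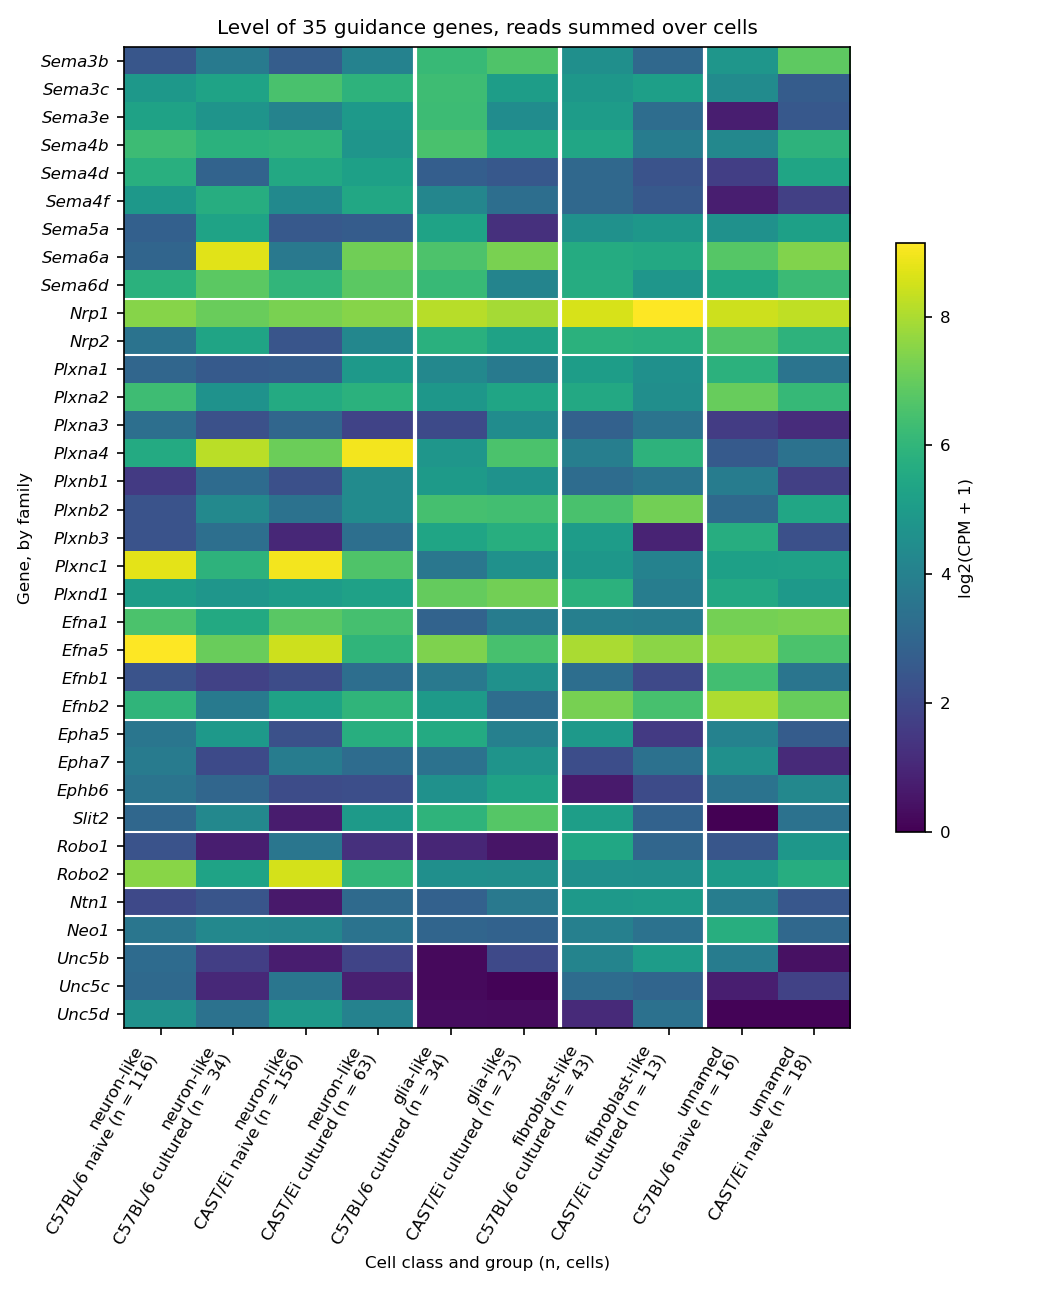
Level of the 35 guidance genes as log2(CPM + 1), with genes by family in rows and cell classes and groups in columns (n is cells, reads summed over them). Plxnc1, Robo2 and Efna5 are bright in naive neuron-like columns and Plxna4 and Sema6a in cultured ones. Sema6a is also bright in the unnamed naive class, and Nrp1 in every class.

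In C57BL/6 neuron-like cells 10 members were higher in culture and 13 lower, by 2-fold or more, where 20.8% and 24.3% of all genes passed the same limits. In CAST/Ei 13 members were higher and 7 lower, against 23.1% and 22.5% of all genes. The members' median log2 ratio was -0.44 in C57BL/6 and 0.24 in CAST/Ei, beside -0.15 and 0.02 over all genes. Guidance genes went both ways in each strain, with a lower median in C57BL/6 and a higher one in CAST/Ei. Past 2-fold in both strains, 8 members were higher: Sema3b, Sema6a, Nrp2, Plxna4, Plxnb1, Plxnb3, Epha5 and Slit2. They make up 80% of the higher members in C57BL/6 and 61.5% in CAST/Ei, where for all genes the shared part was 60.8% and 54.6%. Lower in both were 6 members, Plxna3, Plxnc1, Efna5, Robo1, Robo2 and Unc5c, or 46.2% and 85.7% of the lower members, against 56.6% and 61.1% for all genes. The sign was the same in both strains for 24 of 35 members (68.6%), and for 72.5% of all genes. Leaving out the neuron-like cells of highest glial expression left 16 of 34 cultured C57BL/6 cells and moved the members' median there to -1.25, with 8 higher and 19 lower. Under that setting 19.6% of all genes were higher and 43% lower, with a median of -0.70. Leaving out for each gene the cell with most of its reads kept 22 of 23 member calls in C57BL/6 and 18 of 20 in CAST/Ei. The calls lost were Nrp2 in C57BL/6 and Efnb1 and Unc5b in CAST/Ei. That setting also gave 11 members lower in place of 7 in CAST/Ei, where 31.9% of all genes were lower under it.

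**Figure D2:**
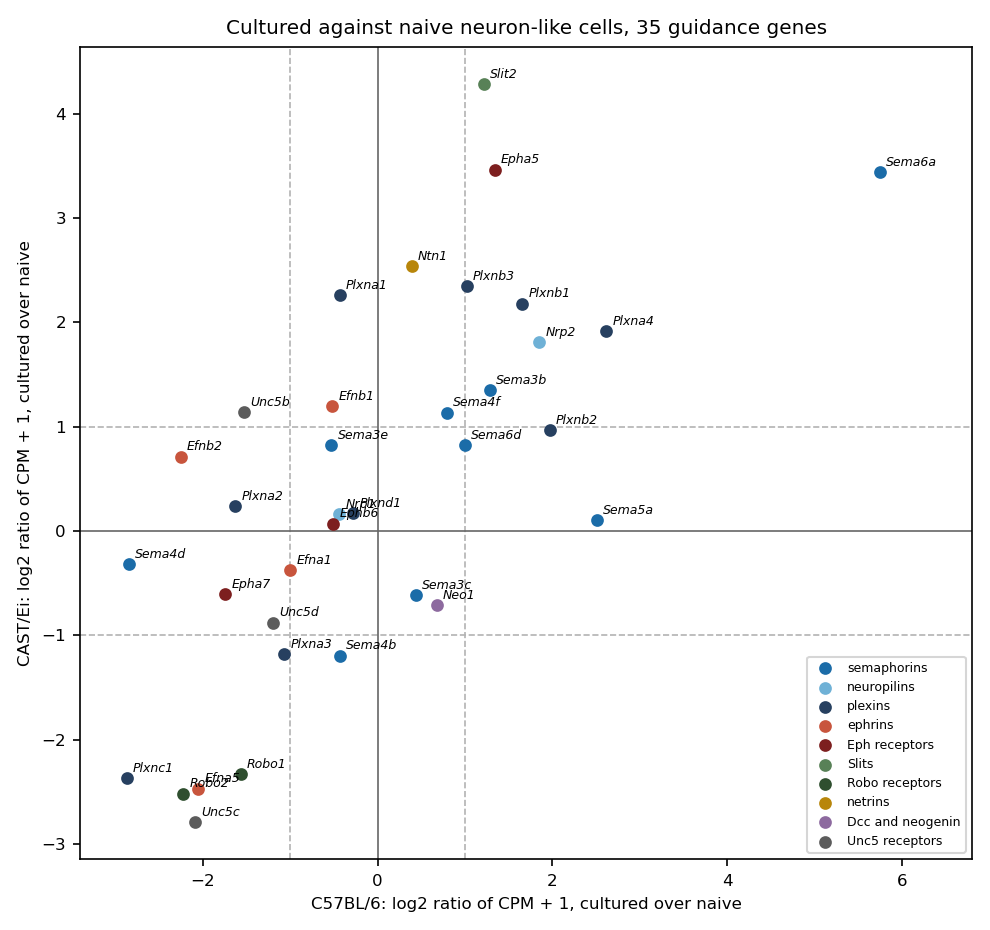
Log2 ratio of CPM + 1, cultured over naive neuron-like cells, in C57BL/6 (horizontal) and CAST/Ei (vertical), with 1 point per guidance gene coloured by family and dashed lines at 2-fold. Sema6a lies far to the upper right at 5.75 and 3.44, Plxnc1, Robo2 and Efna5 at the lower left, and Unc5b alone past 2-fold in opposite directions.

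Markers of other cells differed too between cultured and naive neuron-like cells. Of the 14 glial markers 10 were at least 2-fold higher in culture in C57BL/6 and 9 in CAST/Ei, of the 13 fibroblast markers 12 and 11, and of the 13 cell division genes all 13 in both, beside 20.8% and 23.1% of all genes. Endothelial markers went the other way, with 0 of 10 higher and 4 and 7 lower, while of 5 mural markers 3 were higher and 1 lower in C57BL/6 and 1 higher and 3 lower in CAST/Ei. Over summed reads the glial list was at 3386 and 3135 CPM in C57BL/6 and 2625 and 3224 in CAST/Ei, naive first. Summed per cell, the glial list ran from 87.2 to 19299 CPM (median 2324) in naive and from 415 to 5852 (median 2716) in cultured C57BL/6 cells. In CAST/Ei it ran from 92.4 to 33880 (median 2119) and from 806 to 8805 (median 2776). The fibroblast list had medians of 82.6 and 3217 CPM in C57BL/6 and 169.4 and 2790 in CAST/Ei, naive first. Cell division genes had medians of 7.07 and 1379 CPM, and 5.24 and 1025. Sox10, a defining glial gene, was at 2.92 and 59.5 CPM in C57BL/6 and 1.94 and 129.4 in CAST/Ei, and no marker of these lists was at 0 in any of the 4 groups. Of the 27 measured markers of neuron subtypes, 19 and 18 were lower in culture, beside 24.3% and 22.5% of all genes. The part of these shifts in the guidance results was not tested.

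Among the ligands, Sema6a had the highest culture ratio in C57BL/6 of all 35 members. It encodes a transmembrane semaphorin that binds Plxna2 and Plxna4. Naive C57BL/6 neuron-like cells ranged from 0 to 147.6 CPM with a median of 0, and cultured ones from 27.8 to 1449 with a median of 451. In CAST/Ei the naive cells ranged from 0 to 300.4 CPM with a median of 0 and the cultured ones from 0 to 665 with a median of 92.8. Most naive cells lacked the transcript and nearly all cultured cells held it, with ranges that overlapped in both strains. Summed levels were 6.81 CPM (6.29 to 7.35) and 419 CPM (409.5 to 428) in C57BL/6, a log2 ratio of 5.75, and only 20 genes of the table had a higher one. For CAST/Ei they were 12 (11.5 to 12.6) and 140.8 (137.9 to 143.6), a log2 ratio of 3.44, with 247 genes above it. Without the cells of high glial expression the ratios were 6.71 and 3.68.

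Shares of cells point the same way for Sema6a. With each cell thinned to 200000 reads and at least 5 reads required, 8.26% of the naive C57BL/6 cells held it (3.85 to 15.1) and 96.4% of 28 cultured ones (81.7 to 99.9). In CAST/Ei the shares were 20.3% of naive cells (14.1 to 27.7) and 75.4% of 57 cultured cells (62.2 to 85.9). Unthinned, the C57BL/6 shares were 22.4% and 100%, and the CAST/Ei shares 26.9% and 90.5%. Thinning left out 7 and 6 shallower cells in C57BL/6 and 8 and 6 in CAST/Ei. Sema6a was not a neuronal transcript alone: 90% of thinned glia-like cells of C57BL/6 and 81% of CAST/Ei held it, and 66.7% and 58.3% of fibroblast-like cells. Its level was 96.2 and 156.4 CPM in the glia-like class and 48.4 and 44.6 in the fibroblast-like class, C57BL/6 first. Cultured C57BL/6 neuron-like cells thus stood above both classes of their strain, and cultured CAST/Ei neuron-like cells below their glia-like class. Naive cells of the unnamed class held Sema6a too, at 106.4 and 170.7 CPM, C57BL/6 first, and in 60% and 53.3% of thinned cells. In that class 1 cell gave 60.8% of the CAST/Ei reads.

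Other ligands higher in both strains were Sema3b and Slit2. Sema3b, a secreted repellent that binds neuropilins, was at 4.43 and 12.2 CPM in C57BL/6 and 5.45 and 15.4 in CAST/Ei, naive first, log2 ratios of 1.29 and 1.35. Single cells reached 77.8, 137.5, 126.6 and 216 CPM in the same order, with medians of 0 in both naive groups and 1.70 and 1.08 in culture, so the ranges overlapped throughout. The glia-like class held 71.2 and 98.6 CPM of Sema3b, above every neuron-like group. Without the neuron-like cells of high glial expression the ratios were -0.43 in C57BL/6 and 0.34 in CAST/Ei.

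Slit2, a secreted repellent of Robo-bearing axons, was at 7.33 CPM in naive and 18.3 in cultured C57BL/6 cells, a log2 ratio of 1.21. In CAST/Ei the levels were 0.628 (0.511 to 0.764) and 30.7 (29.4 to 32.1), a log2 ratio of 4.29 that 90 genes of the table exceeded. Naive cells had a median of 0 and a highest value of 155.7 CPM in C57BL/6 and 42.1 in CAST/Ei, and cultured cells medians of 7.57 and 2.51 and highest values of 115.9 and 404. All ranges started at 0 and overlapped. Glia-like cells held 60.5 and 104.9 CPM. Within C57BL/6, cluster 10 had 30.5 CPM of Slit2 and cluster 13 had 0.732, while in CAST/Ei the same clusters had 23.7 and 35.8. The C57BL/6 ratio was -2.04 without cells of high glial expression, and 3.42 without the naive cluster 9 described below, whereas the CAST/Ei ratio was 4.39 without the glia-rich cells.

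Among ligands lower in culture, Efna5 stood at 549 CPM (544 to 554) in naive and 131.7 (126.5 to 137.1) in cultured C57BL/6 cells. Its CAST/Ei levels were 344 (342 to 347) and 61.5 (59.6 to 63.4), and the log2 ratios were -2.05 and -2.47. Single cells reached from 0 to 2147 CPM with a median of 371 in naive C57BL/6, and from 0 to 654 with a median of 125.5 in culture. In CAST/Ei the medians were 179 and 37.4 and the highest values 2012 and 368. Both strains showed the drop in the median and in the top of the range, with wide overlap. The shared direction held under all 12 alternatives in C57BL/6 and all 11 in CAST/Ei, from -2.89 to -1.30 and from -3.95 to -1.41 on the log2 scale. In each strain 1 of these alternatives, the filter of members at 5 CPM or more, leaves the ratio as it was. Fibroblast-like cells held more Efna5 than cultured neuron-like cells, 249 and 188 CPM.

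The remaining ligands passed 2-fold in 1 strain or none. Sema4d, a transmembrane semaphorin received by Plxnb1, was at 53.5 and 6.59 CPM in C57BL/6 and 44.7 and 35.7 in CAST/Ei, log2 ratios of -2.84 and -0.32. Single naive cells had medians of 34.1 and 35.3 CPM and cultured cells of 6.04 and 3.53, with highest values of 300.3, 27.7, 316 and 850.3 in the order C57BL/6 naive and cultured, then CAST/Ei naive and cultured. Medians were therefore low in culture in both strains, and 1 cell gave 65.9% of the Sema4d reads of cultured CAST/Ei cells, with a ratio of -1.71 without top cells. Efnb2, ephrin-B2, showed a like split, with 62 and 12.2 CPM in C57BL/6 (log2 ratio -2.25, and -0.03 over all cells) and 37 and 61.4 in CAST/Ei (0.71), where 1 cell gave 55.9% of the cultured reads and the ratio without top cells was -0.27. Its medians over cells were 14.9 and 3.78 CPM in C57BL/6 and 5.96 and 2.49 in CAST/Ei, and all 4 ranges began at 0. Efna1 was at 92.7 and 45.7 CPM in C57BL/6 (-1.003) and 110.9 and 85.4 in CAST/Ei (-0.37), with medians of 71.1, 26.8, 102.7 and 23.3. Its C57BL/6 ratio was -0.50 without cells of high glial expression. In cultured CAST/Ei cells 1 cell gave 38.1% of the Efna1 reads, and without top cells the ratio was -0.98. Sema5a, which holds thrombospondin repeats and binds Plxna1 and Plxna3, was at 5.96 and 38.7 CPM in C57BL/6 (2.51) and 4.90 and 5.35 in CAST/Ei (0.10). Only 13 of 34 cultured C57BL/6 cells had a Sema5a read, 1 of them gave 50.2% of the reads, and the median was 0 in each group.

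Sema4b and Sema4f, transmembrane semaphorins of class 4, passed 2-fold in CAST/Ei alone. Sema4b was at 75.2 and 55.6 CPM in C57BL/6 (-0.43) and 60.8 and 26 in CAST/Ei (-1.19), with medians over cells of 71.7, 48.5, 55.5 and 22.9. Sema4f was at 28.6 and 50.2 CPM (0.79) and 19.1 and 43.1 (1.14), yet its medians were 16.3, 9.84, 9.61 and 8.86, so the sum and the middle cell went opposite ways. In C57BL/6 culture 1 cell gave 43.4% of Sema4f reads, and without top cells the ratio was 0.15. Sema3c, secreted and bound by neuropilins, and Sema3e, the ligand of Plxnd1, stayed within 2-fold in both strains, at 0.44 and -0.61 for Sema3c and at -0.53 and 0.82 for Sema3e. Sema6d, a transmembrane ligand of Plxna1, was within 2-fold at 55.8 and 112.5 CPM in C57BL/6 and 64.2 and 114.3 in CAST/Ei, log2 ratios of 0.9998 (just under the limit) and 0.82. Medians of Sema6d over cells differed less, 39.5 and 43 CPM, and 40.1 and 36.8. Ntn1, netrin-1, and Efnb1, ephrin-B1, were under 10 CPM in all groups and passed 2-fold in CAST/Ei alone, with log2 ratios of 2.54 and 1.20. In cultured CAST/Ei cells 1 cell gave 72.1% of the Efnb1 reads, and without top cells the Efnb1 ratio was -0.054. The Ntn1 ratio in C57BL/6 was 0.39, and 1.08 without top cells.

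Among the receptors Plxna4 had the highest culture ratio in C57BL/6. This class A plexin, chr6:32144268-32588192 in mm10, signals for Sema3a with Nrp1 and for Sema6 ligands. Naive C57BL/6 cells ranged from 0 to 260.4 CPM with a median of 15.4, and cultured cells from 5.57 to 1089.9 with a median of 252. Naive CAST/Ei cells ranged from 0 to 558 CPM with a median of 53.5, and cultured cells from 1.77 to 2533 with a median of 436. Every cultured neuron-like cell of both strains had a read, and the ranges overlapped in their lower parts. Summed levels were 47.5 CPM (46.1 to 48.9) and 295 (287 to 303) in C57BL/6, a log2 ratio of 2.61, and 133.5 (131.7 to 135.3) and 507 (502 to 513) in CAST/Ei, a ratio of 1.92. Thinned shares went from 47.7% (38.1 to 57.5) to 92.9% (76.5 to 99.1) in C57BL/6 and from 63.5% (55.2 to 71.3) to 94.7% (85.4 to 98.9) in CAST/Ei, and unthinned from 59.5% to 94.1% and from 71.2% to 95.2%. Cultured glia-like cells held 26.9 and 92.2 CPM and fibroblast-like cells 14.1 and 58.7, below the neuron-like cells of their strain. The thinned shares of those classes were 40% and 71.4%, and 30.8% and 91.7%. The ratios without cells of high glial expression were 2.91 and 1.95, and over all cells of C57BL/6, other classes included, 0.76. Plxna4 is among the 10 leading genes of the cultured cluster 10, so its level there helped to set the cluster.

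**Figure D3:**
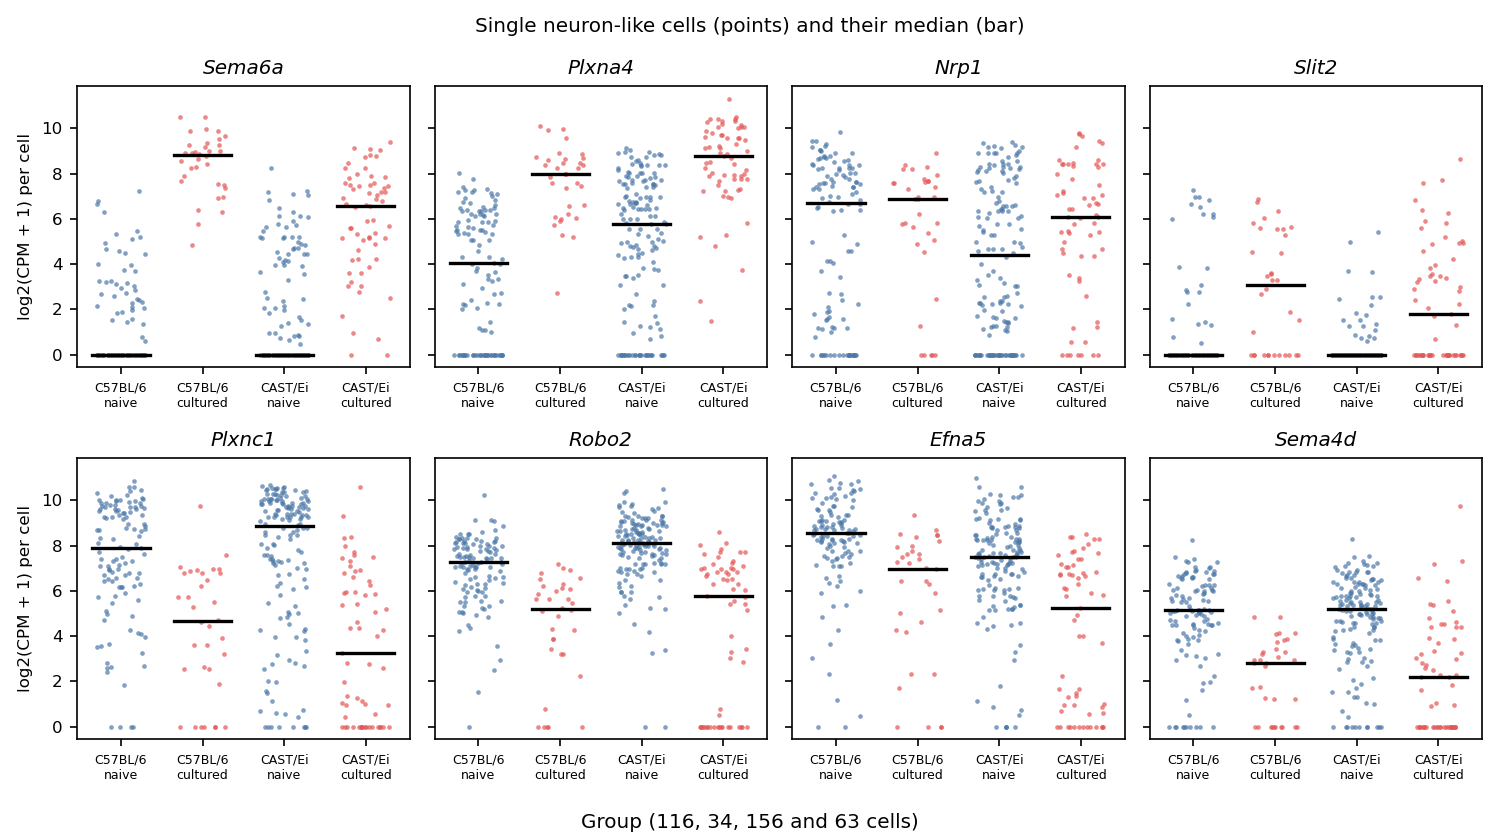
Log2(CPM + 1) of 8 guidance genes in single neuron-like cells (points; naive blue, cultured red) with the group median as a bar, for 369 cells in all. Sema6a and Plxna4 medians lie higher in culture and those of Plxnc1, Robo2, Efna5 and Sema4d lower in both strains, while Nrp1 spreads over the whole range.

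Plxnc1, chr10:94790866-94944835, was the receptor with the lowest ratio in C57BL/6. Single naive cells ranged from 0 to 1862 CPM with a median of 238 in C57BL/6 and from 0 to 1633 with a median of 459 in CAST/Ei. Cultured cells ranged from 0 to 849.8 CPM with a median of 24.3 and from 0 to 1555 with a median of 8.50. Medians were lower in culture in both strains, and the groups overlapped: the upper quartile of cultured cells, 109.1 and 79.5 CPM, lay above the lower quartile of naive ones, 71.5 and 51.8. The sums were 435 CPM (430.3 to 439) and 58.6 (55.1 to 62.2), a log2 ratio of -2.87, and 507 (503 to 510.2) and 97.2 (94.8 to 99.5), a ratio of -2.37. In C57BL/6 culture 1 cell gave 43.3% of the reads, and without the top cell of each group the ratios were -3.52 and -2.86. Thinned shares were 84.4% (76.2 to 90.6) and 42.9% (24.5 to 62.8), then 77% (69.4 to 83.5) and 47.4% (34 to 61). Unthinned, these shares were 92.2% and 61.8%, and 86.5% and 50.8%. In the cultured glia-like class the thinned share was 13.3% and 14.3%, and in the fibroblast-like class 20.5% and 25%.

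Robo2 and Robo1, the Slit receptors of the table, were both lower in culture. Robo2, chr16:73891839-74411825, was at 183 CPM (179.9 to 185) and 38.2 (35.4 to 41.2) in C57BL/6 and at 374 (371 to 377) and 64.5 (62.6 to 66.5) in CAST/Ei, log2 ratios of -2.23 and -2.52. Its medians over cells were 152.8 and 35.7 CPM, and 279.9 and 53.4, with highest values of 1201, 145.9, 1436 and 385. Robo2 had a read in 99.1% of C57BL/6 and 98.7% of CAST/Ei naive cells, against 85.3% and 69.8% of cultured ones. Robo1 was far lower throughout, at 4.09 and 0.720 CPM (-1.57) and 11.1 and 1.41 CPM (-2.33), with reads in 4 of 34 and 10 of 63 cultured cells. Over all cells of C57BL/6 in place of neuron-like ones the Robo1 ratio was 2.16, and the cultured fibroblast-like class of that strain held 42.8 CPM. By these sums Slit2 was at least 2-fold higher and both Robo receptors lower in the same cultured class. In C57BL/6 the Slit2 ratio had the other sign without cells of high glial expression and without cluster 10 (-2.31). Cluster 13 of that strain held 0.732 CPM of Slit2.

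Netrin receptors were mostly low. Unc5c was at 7.74 and 1.05 CPM in C57BL/6 and 11 and 0.730 in CAST/Ei, log2 ratios of -2.09 and -2.79, with a median of 0 in all groups but naive CAST/Ei, where it was 1.01. Unc5d was at 23.8 and 9.85 CPM (-1.19) and 29.3 and 15.5 (-0.88), with a median of 0 in every group and highest values of 239, 96.7, 422 and 172.2. None of 30 thinned C57BL/6 or 21 CAST/Ei glia-like cells held 5 reads of Unc5d, which allows shares of up to 10% and 14.3%, taken here as 3 cells of the total. Unc5b stayed under 10 CPM and went opposite ways, at 8.25 and 2.21 CPM (-1.52) and at 0.653 and 2.64 (1.14, and 0.79 without top cells). Neogenin, Neo1, which also binds repulsive guidance molecules, stayed within 2-fold at 0.68 and -0.71, with 11 and 18.1 CPM and then 17.3 and 10.2. Their ligand in the table, Ntn1, was higher in fibroblast-like cells, at 29.7 and 31.4 CPM, than in the other cultured classes.

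Neuropilins behaved differently from each other. Nrp1, the Sema3a receptor, was at 177 and 129.99 CPM in C57BL/6 (-0.44) and 157.6 and 176 in CAST/Ei (0.16), within 2-fold in both. Its single cells ranged from 0 to 911, 483, 675 and 874 CPM, with medians of 104.1, 117.25, 20.3 and 66.6. Nrp2, which prefers Sema3c and Sema3f, was at 10.1 and 39.1 CPM (1.85) and at 4.30 and 17.6 (1.81). In cultured C57BL/6 cells 1 cell gave 65.6% of the Nrp2 reads and in CAST/Ei 49.2%, and without the top cells the ratios were 0.53 and 1.20, and without cluster 13 the C57BL/6 ratio was 0.24. Over cells its medians were 1.85, 4.09, 0 and 1.10 CPM, with highest values of 145.5, 624, 106.99 and 427. Both genes were higher in the fibroblast-like class, Nrp1 at 385 and 563 CPM and Nrp2 at 55.6 and 52.8.

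Among class B plexins, Plxnb1, the Sema4d receptor, was at 1.90 and 8.14 CPM in C57BL/6 (1.65) and 3.69 and 20.3 in CAST/Ei (2.18). In CAST/Ei 1 cell gave 71.8% of the cultured reads and 1 cell 40.7% of the naive reads. Without the top cell of each group the levels there were 2.20 and 5.91 CPM, naive first, and the ratio was 1.11. Plxnb2, which binds class 4 semaphorins, was at 4.05 and 18.8 CPM (1.97) and 9.93 and 20.4 (0.97), with medians of 0, 12.4, 0.378 and 3.56. Plxnb3, the Sema5a receptor, was under 10 CPM in all groups, with log2 ratios of 1.02 and 2.35 and reads in 9 and 8 naive cells. In C57BL/6 the Plxnb3 ratio was 2.02 without top cells. Plxnb1 and Plxnb3 thus passed 2-fold in both strains and Plxnb2 in C57BL/6 alone, and glia-like cells held more of each than cultured neuron-like cells, Plxnb2 at 87.1 and 81.3 CPM, Plxnb1 at 30.6 and 24.2, and Plxnb3 at 40.7 and 52.3. Plxna2, a receptor of Sema6a, was at 77.1 and 24.3 CPM (-1.63) and 46.8 and 55.5 (0.24), with medians of 39.2, 14.2, 26 and 18.1 and highest values of 402, 185, 302 and 607. Plxna1 passed 2-fold in CAST/Ei, 5.33 and 29.4 CPM (2.26), with 57.6% of cultured reads from 1 cell and a ratio of 1.32 without top cells, and was at 7.09 and 4.98 in C57BL/6 (-0.44). Plxna3, a Sema3f receptor, was under 10 CPM and lower in both, -1.07 and -1.18, and Plxnd1, the Sema3e receptor, stayed within 2-fold at 33.2 and 27.2 CPM (-0.28) and 32.5 and 36.7 (0.17).

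Of the Eph receptors, Epha5, a receptor of ephrin-A5, was higher in culture in both strains. It was at 11 and 29.3 CPM in C57BL/6 (1.34) and 3.76 and 51.5 in CAST/Ei (3.46), where 1 cell gave 53.9% of the cultured reads. Without the top cell of each group the CAST/Ei ratio was 2.59. Without cells of high glial expression the C57BL/6 ratio was 0.73. Its medians over cells were 0 and 7.10 CPM, then 0 and 0, with highest values of 97.2, 121.6, 70.5 and 1178. Epha7 was at 12.9 and 3.16 CPM (-1.74) and 13.3 and 8.40 (-0.61), with medians from 0 to 0.371 and reads in 8 of 34 cultured C57BL/6 cells. Ephb6, which lacks kinase activity, stayed within 2-fold at -0.51 and 0.07. Ephrin-A5 was thus lower and one of its receptors higher, on sums that for the receptor lean on single cells.

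Cytoplasmic partners and other guidance genes were read from lists fixed by textbook roles. The counts stand beside 20.8% of all genes higher and 24.3% lower in C57BL/6 and 23.1% and 22.5% in CAST/Ei, and the medians beside -0.15 and 0.02. Of 26 measured effectors of semaphorin and plexin signalling, 10 were at least 2-fold higher and 3 lower in C57BL/6, and 11 and 0 in CAST/Ei, with median log2 ratios of 0.31 and 0.75. Met, a receptor kinase that associates with class B plexins, was at 0.476 and 60.2 CPM in C57BL/6 and 1.54 and 87.6 in CAST/Ei, and Erbb2, another such kinase, had ratios of 3.26 and 3.10. Dpysl2, the collapsin response mediator, was at 9563 and 4465 CPM and at 6795 and 4462, ratios of -1.10 and -0.61, beside the actin oxidase Mical1 at -1.09 and -0.71. Of 24 Eph and ephrin effectors 9 were higher and 6 lower in C57BL/6, and 11 and 6 in CAST/Ei, with the kinases Abl1 (1.24 and 4.67) and Src (2.32 and 2.93) at the top and Vav3 (-2.84 and -3.41) and Rgs3 (-1.66 and -2.78) at the bottom. Slit and Robo partners had 8 and 9 of 20 higher and 2 and 0 lower, led by the Slit-binding proteoglycan Sdc1 (4.30 and 3.39) and Prrg4 (2.65 and 3.25), with Cap1 (-1.09 and -0.39) and Ndfip1 (-1.10 and -0.21) lowest. Netrin effectors had 8 of 19 higher and 1 lower in each strain. Myo10, the filopodial myosin, was at 127.8 and 998 CPM and at 144.96 and 1048, and the Rac activator Dock1 had ratios of 4.38 and 3.34, while Dapk1 (-1.68 and -1.30) and Ablim1 (-0.97 and -0.80) were lowest. Other guidance molecules and co-receptors were even, 6 of 25 higher and 6 lower in C57BL/6 and 5 and 5 in CAST/Ei. There the Wnt receptor Ryk (3.35 and 1.18) and the growth factor Gdnf (3.28 and 3.15) led, and the Nogo receptor relative Rtn4rl1 (-3.95 and -3.21) and Dscam (-2.23 and -3.39) closed the list. Partner values are sums over cells and are given without the top-cell and glia-rich checks made for members. Abl1, for 1, went from 6.64 to 193.3 CPM in CAST/Ei and from 6.33 to 16.3 in C57BL/6.

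Naive neurons differed by subtype in which guidance receptors they carried. The clusters are named here by a subtype marker among their leading genes, and as cells were clustered on all genes, levels by cluster are a description. Plxnc1 was highest in the clusters of Mrgpr neurons, at 974 CPM in cluster 2 (Mrgpra3, 16 C57BL/6 cells), 925 in cluster 4 (Mrgprd, 26 C57BL/6), 859 in cluster 14 (Mrgprd, 31 CAST/Ei) and 913 in cluster 8 (Mrgpra3, 59 cells). Cluster 1 (Th, 30 C57BL/6) and cluster 7 (Th, 31 cells, mostly CAST/Ei) held 158.2 and 43 CPM, so the Plxnc1 order was alike in both strains. Nrp1 was highest in the Th clusters, at 372 and 417 CPM, against 4.18 and 8.42 in the Mrgprd clusters and 3.77 in cluster 6 (Sst, 17 cells). Its median over the 9 clusters was 76.3 CPM. Nrp1 is not given for the Mrgpra3 clusters, so no reverse of the Plxnc1 order over all clusters is claimed. Sema3e was at 122.6 and 59.1 CPM in the Th clusters and at most 3.41 elsewhere but for 18.6 in cluster 9 (Nefh, 11 C57BL/6 cells), and Efna5 at 1153 and 858. Cells that mark as low-threshold C fibres by Th thus shared high Nrp1, Sema3e and Efna5.

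Other members also differed between clusters, and some of these differences went with strain. Slit2 was at 91.5 CPM in cluster 9 and at most 1.67 in each other naive neuron-like cluster, and Efnb2 at 271 there, above 110.1 and 92.2 in the Th clusters. Nefh, the heavy neurofilament that leads cluster 9, marks large myelinated neurons. Unc5d was at 60.3 and 58.8 CPM in the Mrgpra3 clusters and 0.450 and 0.0361 in the Mrgprd clusters. Plxna4 was at 312 CPM in cluster 7, 138.2 in cluster 3 (Tac1, 51 cells of both strains) and about 3 in both Mrgprd clusters (3.02 and 3.07). Plxna2 and Ephb6 were highest in cluster 2, at 146.4 and 39.2 CPM, and Robo1 at 40.8 in cluster 14. Robo2 was present in all 9 clusters, from 84.5 to 652 CPM, while Efna1 and Sema6d ranged from 24.1 to 149.8 and from 22.8 to 87.6.

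**Figure D4:**
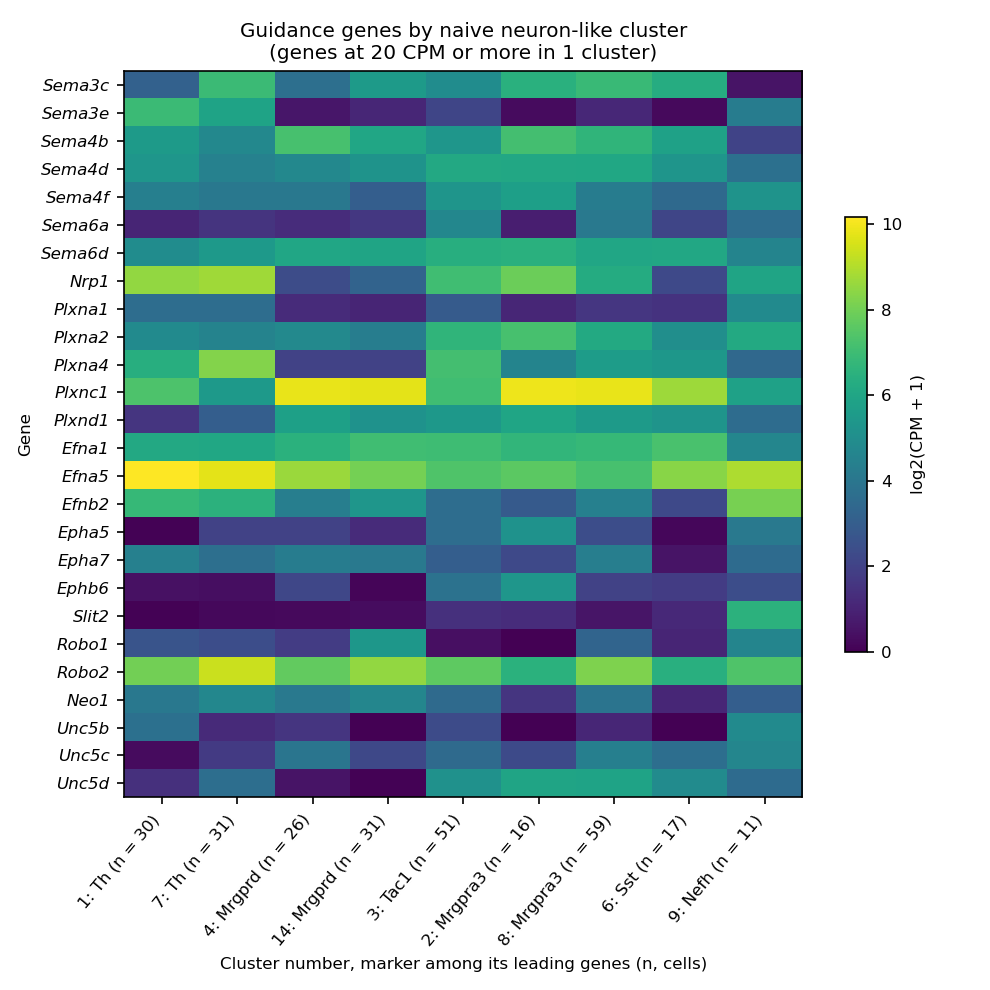
Log2(CPM + 1) of guidance genes that reach 20 CPM in at least 1 naive neuron-like cluster (rows), by cluster (columns; marker gene and n of naive cells given). Plxnc1 is bright in the Mrgprd and Mrgpra3 columns, Nrp1, Sema3e and Efna5 in the Th columns, and Slit2 in the Nefh column alone.

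Across single cells 8 pairs of members were compared. Spearman's rho of Nrp1 and Plxna4, co-receptors for Sema3a, was 0.64 over naive C57BL/6 cells and 0.51 over CAST/Ei cells (272 in all), and -0.23 and 0.10 over 34 and 63 cultured cells. Plxna4 and Plxnc1 had -0.45 and -0.60 in naive cells and 0.02 and 0.07 in cultured ones. Nrp1 and Sema3e had 0.60 and 0.42, and 0.41 and 0.19 in culture. Nrp1 and Plxnc1 had -0.23 and -0.48, and 0.11 and 0.014. The other 4 pairs had, in naive cells, Efna5 and Nrp1 at 0.30 and 0.25, Plxna4 and Efna5 at 0.19 and 0.28, Plxna4 and Robo2 at 0.10 and 0.20, and Efna5 and Plxnc1 at -0.018 and -0.33. In culture those 4 pairs lay between -0.40 and 0.36. Cells of a group share capture, library batch and the makeup of subtypes, and the cultured groups are smaller, so these values describe the cells and no test was made.

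Between the naive strains, 5 members were at least 2-fold higher in CAST/Ei and 8 lower, where 7.23% and 6.2% of all genes were. The median log2 ratio of members, CAST/Ei over C57BL/6, was -0.21 beside 0.06 for all genes. The named build, mm10, is a C57BL/6 genome, and the part of alignment in the strain differences was not tested. Higher in CAST/Ei were Sema3c (28.1 and 90.5 CPM, C57BL/6 first, log2 ratio 1.65), Plxna4 (47.5 and 133.5, 1.47), Robo1 (4.09 and 11.1, 1.25), Plxnb2 (4.05 and 9.93, 1.11) and Robo2 (183 and 374, 1.03). Medians over cells followed for Sema3c, 5.38 and 61.8 CPM, for Plxna4, 15.4 and 53.5, and for Robo2, 152.8 and 279.9, all with overlapping ranges. Lower in CAST/Ei were Slit2 (-2.35), Ephb6 (10.6 and 3.36 CPM, -1.41), Epha5 (-1.33), Sema3e (37.1 and 16.1, -1.15), Nrp2 (-1.07), and, under 10 CPM, Unc5b (-2.48), Ntn1 (-1.41) and Plxnb3 (-1.33). In naive C57BL/6 cells 1 cell gave 64.5% of the Ntn1 reads and 1 cell 78.7% of the Plxnb3 reads, and without top cells the ratios were -0.60 and -0.40. With a pseudocount of 10 CPM, 2 members were higher and 0 lower, where 2.87% and 2.47% of all genes were.

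The strains also differed in which neurons were caught, so matched clusters were set side by side. For Slit2 the naive difference lay in cluster 9, which holds C57BL/6 cells alone, and without it the ratio was -0.15. Sema3c was higher in CAST/Ei in the Th clusters, 7.98 and 120.7 CPM (3.76), in the Mrgprd clusters, 12 and 46.1 (1.85), and less so in the Tac1 cluster, 21.7 and 36.7 (0.73). Plxna4 was at 82.8 and 324 CPM in the Th clusters (1.95) and 78.3 and 183 in the Tac1 cluster (1.21), and alike in the Mrgprd clusters at 0.02. Robo1 differed in the Mrgprd clusters, 2.51 and 40.8 CPM (3.57), and was within 2-fold in the Th and Tac1 clusters, while the Robo2 ratio was 1.35 in the Th clusters, 0.81 in the Mrgprd clusters and 0.57 in the Tac1 cluster. The Mrgpra3 clusters were not paired, and there Robo1 had no read in cluster 2 and was at 8.65 CPM in cluster 8. Sema3e was -1.01 in the Th clusters and 1.53 in the Tac1 cluster, the latter between 1.12 and 5.12 CPM. Plxnb2 was within 2-fold in each, at 0.54 (Mrgprd), 0.63 (Th) and 0.38 (Tac1). In that order Nrp2 was at 1.05, -2.56 and -0.49, and Ephb6 at -2.01, -0.07 and -0.51. Epha5 was at -0.76, 1.93 and -1.22, with 0.0373 and 2.94 CPM in the Th clusters, C57BL/6 first. Plxnc1, nearly equal over all naive cells at 0.22, was at 158.2 and 35.8 CPM in the Th clusters (-2.11) and alike in the Mrgprd ones (-0.11). Within these clusters 21.8% (Mrgprd), 23.5% (Th) and 24.6% (Tac1) of all genes were past 2-fold, on 23 to 31 cells a side.

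**Figure D5:**
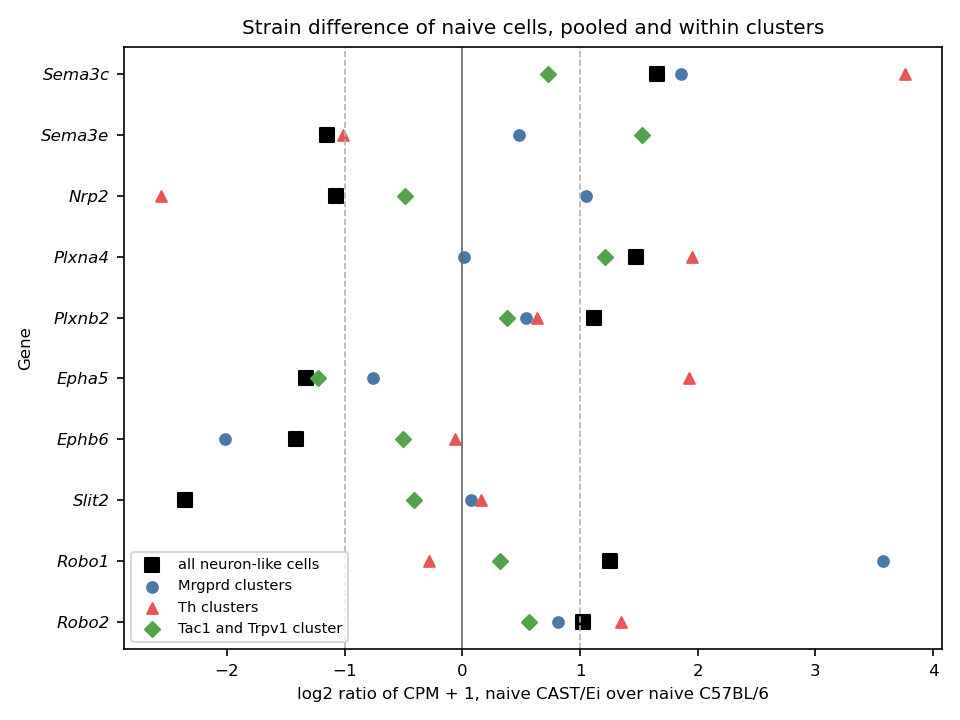
Log2 ratio of CPM + 1, naive CAST/Ei over naive C57BL/6, for 10 guidance genes past 2-fold over all neuron-like cells (black squares), with the same ratio within Mrgprd clusters (circles), Th clusters (triangles) and the Tac1 and Trpv1 cluster (diamonds). Sema3c and Robo2 lie on the higher side in all 3, whereas the Slit2 points within clusters lie near 0.

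Between the cultured strains, 7 members were at least 2-fold higher in CAST/Ei and 5 lower, against 21.7% and 13.9% of all genes, with a median of 0.44 beside 0.16. Higher were Plxna1 (2.34), Sema4d (2.27), Efnb2 (2.24), Efnb1 (1.51), Plxnb1 (1.22), Epha7 (1.18) and Plxna2 (1.16). Without the cell with most reads of the gene, 5 of the 12 calls were kept, 3 members higher and 2 lower, where 16.9% and 10% of all genes were. Lost were Sema4d (0.98), Plxna2 (0.76), Efnb1 (0.21), Plxnb1 (0.12), Efna5 (-0.999), Sema4b (-0.97) and Nrp2 (-0.57). Without cluster 13, Efnb2 was at 0.32 and Plxna2 at -0.27. Lower were Sema5a (-2.65), Sema6a (-1.57), Nrp2 (-1.11), Efna5 (-1.09) and Sema4b (-1.07). Sema6a was lower in CAST/Ei in both cultured clusters, with 358 and 130.5 CPM in cluster 10 (23 and 33 cells) and 544 and 151.2 in cluster 13 (10 and 29 cells). Plxna4 was at 238 and 685 CPM in cluster 10 and 408 and 415 in cluster 13, with a ratio of 0.78 over the class. Over all cells of the groups the Sema6a ratio was -0.01. Cluster 10 had higher levels of the glial and fibroblast lists than cluster 13. The mean log2(CPM + 1) was 5.45 and 3.57 for the glial list and 5.02 and 3.38 for the fibroblast list. The source of that RNA was not tested. Cluster 10 made up 23 of 34 cultured neuron-like cells in C57BL/6 and 33 of 63 in CAST/Ei.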

How the data were processed

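RNA was measured in 516 single cells captured on a microfluidic chip. The unit of the table the authors deposited is the raw count of reads, 1 column a cell, and Bowtie2, SAMtools and mm10 are named with no version or role, per the submitters' processing notes. For the counting program, its use of strand and its annotation, the answer is not given in the sources used here, so reads of a gene and an antisense partner cannot be told apart. Cells held 13932 to 2978345 reads (median 839147), no 2 columns were identical, and every column was used.

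Cells were scaled to CPM, and log2(CPM + 1) of 2000 variable genes was reduced to 20 components, with 15 neighbours, and clustered by the Leiden method at resolution 1 (scanpy 1.11.5, Python 3.11.15), which gave 14 clusters. A cluster took the name of its highest marker list unless its 10 leading genes held more markers of another class. Clusters 10 and 13 were so named without a neuron marker among those genes, and cluster 11, called fibroblast-like, was led by Spp1 and Fn1. Suspected doublets stayed in all values except those of 1 alternative, which left out neuron-like cells whose glial mean was above the 95th percentile of naive ones. Reads were summed per class and group, with a pseudocount of 1 CPM. The formula of the ratio was checked on simulated Poisson sums with known folds, which hold no variation between cells.

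Groups were taken from the labels, and a group is 1 sample, so nothing was tested between groups. Members with at least 10 CPM in 1 group and a 2-fold difference in 1 comparison are given with values, and of each partner list the 2 highest and 2 lowest genes. Members and lists were chosen with earlier results of these data known. Positions are from GENCODE M21 (GRCm38), the files' build. Those of Sema6a are not reported here. Alternatives tried are given with their effect in the closing section.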

Additional observations from a re-analysis of the deposited data

Results flagged for a closer look

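Unc5b, a repulsive netrin receptor, went opposite ways with culture in the strains, with a log2 ratio of CPM + 1 of -1.52 in C57BL/6 and 1.14 in CAST/Ei. Its levels were 8.25 and 2.21 CPM, and 0.653 and 2.64 CPM, naive first, with reads in 33.6% and 23.5% of cells in C57BL/6 and 11.5% and 15.9% in CAST/Ei. In cultured cells 1 cell gave 57.5% of its reads in C57BL/6 and 40.7% in CAST/Ei, and without the top cell of each group the ratios were -2.06 and 0.79, the latter under 2-fold. The difference between the strains was not tested, since each group is 1 sample. Of all genes, 1.94% went past 2-fold in opposite directions. Fibroblast-like cells held more, 16.3 and 32.3 CPM.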

How the results depend on the processing

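Each group is 1 sample, so intervals cover only the counting of reads or the drawing of cells. No alternative tests reproducibility, and sums over cells can rest on 1 cell. Leaving out cells under 200000 reads kept 56 of 56 calls of members at 10 CPM or more. With a pseudocount of 10 CPM in place of 1, 27 of 56 were kept. Kept were 44 over all cells, 51 with cells classed 1 by 1, 48 with the mean of single-cell CPM and 53 with median-of-ratios scaling. Kept too were 50 without cluster 10, 46 without cluster 13, 48 without glia-rich cells and 49 without the top cell of each gene. Leaving out cluster 10 or 13, which hold no naive cell, could not change calls between naive strains, which the 56 include. At 5 CPM or more 55 of 55 were kept, but this filter of members leaves every ratio as it was and could change no call. Without cluster 9, 28 of 30 were kept. Settings without clusters 9, 10 or 13 and without the top cell were chosen after seeing the data. No paired analysis was possible because numbers in the labels only name cells.

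With a pseudocount of 10, members higher and lower were 5 and 6 in the C57BL/6 culture comparison, 6 and 3 in the CAST/Ei one, 2 and 0 between naive strains and 3 and 2 between cultured ones. Shares of all genes higher and lower under it were 14.3% and 12.9% in C57BL/6 culture and 15.8% and 11.7% in CAST/Ei culture. Between naive strains they were 2.87% and 2.47%, and between cultured ones 12.6% and 7.67%. At 3-fold, members higher and lower were 6 and 8 in C57BL/6 culture, 1 and 2 between naive strains and 3 and 1 between cultured strains. No share of all genes and no CAST/Ei culture count is given at that limit, so these counts cannot be read against all genes. Over all cells 8 members were lower in C57BL/6 culture, where 20.5% of all genes were. By the mean of single-cell CPM 3 members were higher between naive and 3 lower between cultured strains, where 7.02% and 10.5% of all genes were. Between cultured strains 12 members were higher with cells classed 1 by 1, 17 without glia-rich cells, 17 without cluster 10 and 3 without the top cell. The shares of all genes higher were 26.5%, 38.5%, 41.8% and 16.9% in that order. Lower were 2 members without cluster 13 and 2 without the top cell, where 7.98% and 10% of all genes were. Without the top cell 11 members were lower in CAST/Ei culture, where 31.9% of all genes were.

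The members' median in C57BL/6 culture (-0.44) was 0.33 over all cells, -0.63 classed 1 by 1, -1.25 without glia-rich cells, -0.021 without cluster 13 and -1.45 without cluster 10. The median of all genes (-0.15) was 0.12, -0.27, -0.70, -0.071 and -0.96 in that order. The members' CAST/Ei culture median (0.24) was 0.50 by the mean of single-cell CPM, 0.53 over all cells, 0.43 classed 1 by 1, 0.33 without cluster 13, 0.10 without cluster 10 and 0.035 without the top cell. For all genes (0.02) it was 0.090, 0.14, -0.00039, -0.038, -0.094 and -0.40 in that order. The members' cultured strain median (0.44) was 0.040, 0.80, 0.99 and 0.85 over all cells, classed 1 by 1, without glia-rich cells and without cluster 10. For all genes (0.16) it was 0.039, 0.26, 0.55 and 0.60.

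Signs turned for Robo1 in C57BL/6 culture over all cells (2.16), Sema3b there without glia-rich cells (-0.43) and without cluster 10 (-0.060), and Slit2 there (-2.04 and -2.31). Between cultured strains they turned for Efnb2 over all cells (-0.80), Nrp2 (0.19) and Plxna2 (-0.27) without cluster 13, and Sema4b without cluster 10 (0.37). The cause was not tested.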
